A study of Mus musculus with 19 samples.

Results

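Medial and dorsal cortex of wildtype control mouse embryos were compared by RNA sequencing at E14.5, an embryonic stage of active neurogenesis. The comparison used 11 of the 19 libraries of the series, chosen by the region and the genotype in their labels: 5 control medial libraries, with title numbers 2 to 6, and 6 control dorsal libraries, with title numbers 1 to 6. Medial and dorsal libraries with the same title number formed 5 pairs, each called an embryo here because the 2 libraries of a number deviated together. The labels do not say that libraries come from separate embryos. The spread behind each p-value is that between pairs, drawn towards a value shared across genes, and it may be technical. Dorsal library 1 had no medial partner and enters the ranges but not the paired test. The other 8 libraries, 4 medial and 4 dorsal, came from E14.5 mutants named GFAP::Cre; SmoM2, in which Cre from a GFAP-driven transgene turns on SmoM2, an always active form of the Hedgehog signal transducer Smoothened, and they serve only for a test of where the regional difference depended on genotype. Whether the controls carried a Cre or a silent SmoM2 allele is not given in the sources used here. The tissue field names dorsal or medial cortex, while the protocol names medial or lateral pieces. Values are TPM, a transcript level scaled by gene length and to a fixed total per library, so a TPM can be set against that of another gene. Of 47643 gene symbols, 13255 had at least 1 TPM in at least 4 of the 11 control libraries and were tested.

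At this stage the wall of the dorsal telencephalon holds radial glia, which divide at the ventricle, intermediate progenitors, which divide above them, and young neurons, which collect in the cortical plate. The medial edge of the cortical sheet becomes the hippocampus and ends in the cortical hem, a strip that secretes Wnt and BMP proteins and borders the choroid plexus, the epithelium that makes cerebrospinal fluid. Cajal-Retzius cells, early neurons that secrete reelin, arise in large part from the hem. Wnt ligands act through Frizzled receptors and beta-catenin, and the pathway switches on its own feedback genes, such as Axin2. Neurogenesis starts laterally and ventrally in the cortical sheet and reaches the medial side later.

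The 11 libraries resembled each other closely within a region (Pearson's r across tested genes from 0.976 to 0.993), with 17570 to 18670 genes above 0 per library and 2.46% to 3.263% of TPM from mitochondrial genes medially against 2.192% to 3.558% dorsally. The first principal component, with 42.0% of the variance, separated the regions, and the second, with 26.7%, set embryos 5 and 1 apart from the rest. Xist and Ddx3y marked embryos 2, 3 and 4 as female and 1, 5 and 6 as male, so each of the pairs was of 1 sex. Emx1, which marks the cortical lineage, was present in both regions, with means of 181 ± 12.9 and 143 ± 5.66 TPM (SD, n = 5 and 6). In all sentences that follow, 5 medial values stand in the order of embryos 2, 3, 4, 5 and 6, and dorsal values are the lowest and the highest of 6 with their median. Changes are medial minus dorsal on the log2(TPM + 1) scale with the standard error (SE) of limma, a scale that understates the change of low genes, and adjusted p is the Benjamini-Hochberg value over the 13255 genes, with a threshold of 0.05.

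The regions differed broadly. Of the genes tested, 6099 passed the threshold, which is 46.0%: 3353 were higher medially (25.3%) and 2746 lower (20.7%). Most of these differences were small, and a change of at least 2-fold was reached by 162 of the higher and 126 of the lower genes. All 5 medial libraries lay above all 6 dorsal libraries for 1487 genes (11.2%) and below them for 1266 (9.55%). The median change of all genes tested was 0.02. The counts of gene groups given further on are to be read against these shares. In tissue pieces of this kind, fewer cells of a type and less RNA per cell cannot be told apart. Among the tested genes, 71 reached 1 TPM in no dorsal library and 43 in no medial library, so these passed the expression filter through 1 region alone.

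The largest medial excess belonged to Htra1, which encodes a secreted serine protease (chromosome 7, 130936111 to 130985660, build GRCm38 here and throughout). It measured 73.2, 67.8, 21.9, 7.92 and 42.0 TPM in the medial libraries and 0.896 to 1.52 (median 1.34) TPM in the dorsal ones, a change of 3.84 ± 0.44 (adjusted p = 0.000623). Every medial library exceeded every dorsal one, yet embryo 5 lay far below embryo 2. Loxl1, a gene for an enzyme that cross-links elastin and collagen (chromosome 9, 58287738 to 58313186), followed with 91.8, 75.3, 45.7, 27.8 and 66 TPM against 4.47 to 10.8 (median 9.40) TPM (2.74 ± 0.18, adjusted p = 5.79e-05). Lhx9, a LIM homeodomain gene (chromosome 1, 138825186 to 138848577), varied less between embryos than Htra1 but was also highest in embryos 2 and 3. It stood at 19.1, 23.7, 12, 11.8 and 13.0 TPM against 1.16 to 2.44 (median 1.69) TPM (2.70 ± 0.12, adjusted p = 2.06e-05). Crym, which encodes a thyroid hormone binding protein (chromosome 7, 120186380 to 120202111), rose from 1.81 to 5.94 (median 3.31) TPM dorsally to 35.6, 43.5, 23.9, 11.9 and 34.8 TPM medially (2.66 ± 0.13, adjusted p = 2.06e-05). The remaining members of the 15 largest medial rises were the noncoding RNA gene Rmst (2.71), Wnt8b, the retinol carrier gene Rbp4 (2.66), the metalloprotease gene Adamts19 (2.53), Zic1, the brain proteoglycan gene Bcan (2.49), Tmem132c (2.42), Rspo1, Wnt5a, Hey2 and Dct.

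The largest medial deficit was that of Mc4r, the gene of the melanocortin 4 receptor (chromosome 18, 66857704 to 66860506). Its medial libraries held 8.47, 6.70, 17.6, 15.6 and 26.6 TPM, below all dorsal libraries at 47.8 to 93.8 (median 72.9) TPM, a change of -2.45 ± 0.22 (adjusted p = 0.000177). Hs3st3b1, which encodes an enzyme that sulfates heparan sulfate (chromosome 11, 63885792 to 63922290), had 1.34, 1.07, 3.24, 4.04 and 4.30 TPM medially, all below the dorsal libraries, whose highest was 20.5 and median 17.7 TPM (-2.45 ± 0.20, adjusted p = 0.000117). Lrrtm3, for a synaptic adhesion protein, was the most even of the large falls, at 2.14, 1.26, 2.48, 2.57 and 2.87 TPM against 11.1 to 16.8 (median 13.3) TPM (-2.21 ± 0.11, adjusted p = 2.06e-05). Besides the projection neuron factor Pou3f1, the 15 largest falls included the adhesion gene Ntm (-1.99), Sla (-1.98), Btbd11 (-1.85), Ube2ql1 (-1.85), Lypd6b (-1.80), Ndrg1 (-1.78), another heparan sulfate sulfotransferase gene, Hs3st5 (-1.75), the urea transporter gene Slc14a1 (-1.71), Rgs6 (-1.70) and Gnal (-1.69), the last 2 of G protein signalling.

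**Figure D1:**
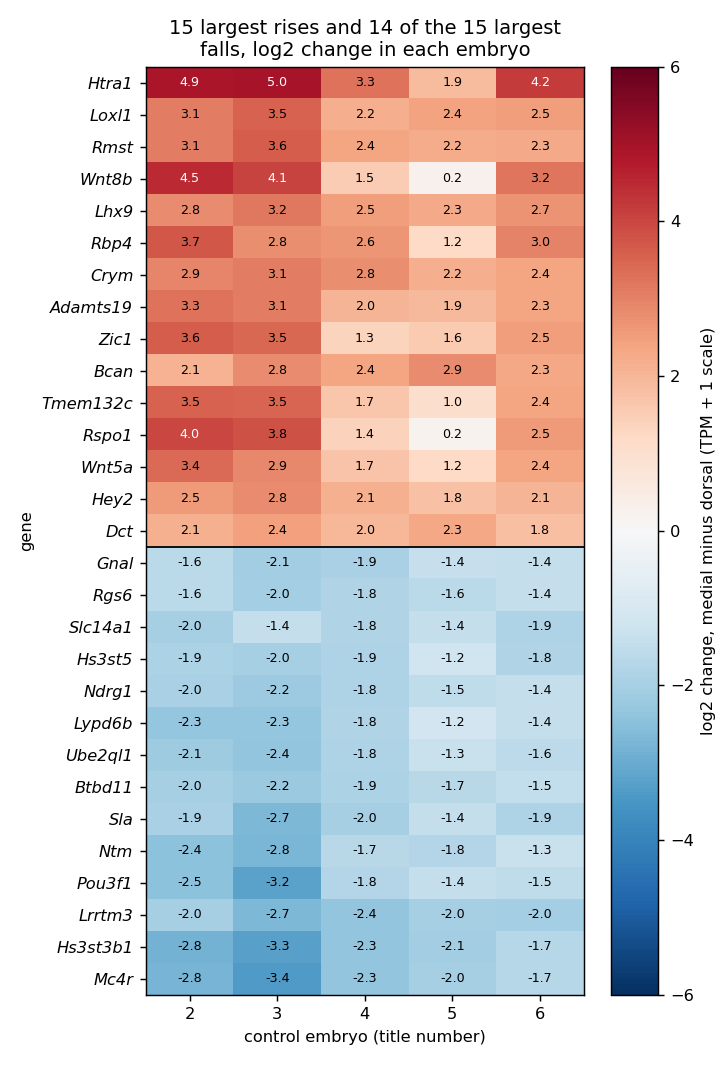
Log2 change (medial minus dorsal, TPM + 1 scale) of the 15 largest rises and 14 of the 15 largest falls, one row per gene and one column per control embryo; red is higher medially and blue lower. All 29 genes shown change in 1 direction in the 5 embryos, but Wnt8b and Rspo1 are strongest in embryos 2 and 3 and close to 0 in embryo 5.

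The medial pieces were not alike in how far they departed from dorsal cortex. Among the 162 genes that were at least 2-fold higher medially, embryo 3 gave the largest change for 78 and embryo 2 for 70, while embryo 5 gave the smallest for 115. Their median change ran 1.68, 1.78, 1.12, 0.89 and 1.33 over embryos 2 to 6. The 126 genes at least 2-fold lower medially had medians of -1.36, -1.58, -1.14, -1.06 and -1.0 in the same order, with the largest fall in embryo 3 for 90 of them. The spread of the 5 paired differences (SD) had a median of 0.41 for the higher and 0.35 for the lower genes, against 0.12 for all genes tested. The dissection boundary is not described for single embryos, and its part in these differences was not tested.

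The genes of the cortical hem were the clearest example of this. Wnt8b, a Wnt ligand gene of hem and hippocampal primordium (chromosome 19, 44493472 to 44514273), stood at 22.8, 17.6, 1.88, 0.352 and 8.21 TPM in the medial libraries and at no more than 0.146 TPM in any dorsal library. The level was high in embryos 2 and 3, intermediate in embryo 6, low in embryo 4 and near the dorsal range in embryo 5. Its change of 2.70 ± 0.60 passed the threshold (adjusted p = 0.00857), but not without embryo 3 (0.0601) or embryo 6 (0.0549). Rspo1, which encodes a secreted enhancer of Wnt signalling (chromosome 4, 124986430 to 125009099), ran the same course at 19.7, 17.2, 1.86, 0.490 and 5.58 TPM against 0.0917 to 0.380 (median 0.291) TPM (2.39 ± 0.54, adjusted p = 0.00975; 0.0508 without embryo 3 and 0.0549 without embryo 6). Rspo2, its relative, had 12.6, 11.9, 1.94, 0.357 and 3.07 TPM against 0.277 to 0.536 (median 0.441) TPM (1.75 ± 0.48, adjusted p = 0.0199; 0.0879 and 0.0651 without the same embryos). Lmx1a, the LIM homeodomain gene that marks the hem (chromosome 1, 167689237 to 167848741), measured 8.24, 7.47, 1.87, 0.664 and 2.27 TPM against 0.136 to 0.361 (median 0.247) TPM (1.70 ± 0.35, adjusted p = 0.00638).

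Wnt5a, a ligand gene that reached well beyond these levels (chromosome 14, 28504750 to 28527448), was at 34.1, 21.7, 7.97, 5.21 and 15.7 TPM medially and 1.67 to 3.20 (median 2.11) TPM dorsally (2.32 ± 0.30, adjusted p = 0.000674), so that even embryo 5 lay above every dorsal library. Bmp7, a BMP ligand gene, was at 13.5, 8.48, 4.83, 3.60 and 6.37 TPM against 0.841 to 2.08 (median 1.52) TPM (1.71 ± 0.24, adjusted p = 0.00113). Wls, whose product carries Wnt proteins to the cell surface, was higher by 0.84 ± 0.17 (adjusted p = 0.00569). In total 7 of the 9 tested hem genes were higher medially and none lower, with a median of 1.71, and 4 of the 9 passed the expression filter through medial libraries alone, so their excess follows from how they entered the test. Without embryo 3 or without embryo 6 the count was 4. Bmp5 (0.19) and Rspo3 (-0.10, at 45.9 to 80.0 TPM medially and 63.9 to 72.9 TPM dorsally) did not pass.

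The other 7 listed hem genes stayed under the filter and were not tested. Wnt3a, the hem ligand required for the hippocampus to grow (chromosome 11, 59248033 to 59290752), followed the embryo order of Wnt8b, with 8.76, 7.77, 0.206, 0.0430 and 2.43 TPM medially and at most 0.10 TPM dorsally. Wnt2b was at 2.43, 2.52, 0, 0 and 0.524 TPM, and Msx1, a BMP target in the dorsal midline, at 3.19, 3.12, 2.21, 0.307 and 0.963 TPM, with dorsal maxima of 0.0803 and 0.292 TPM. All 5 medial libraries exceeded that maximum for Msx1, and those of embryos 2, 3 and 6 did for Wnt2b. Bmp6 reached 2.65 TPM, Bmp4 1.04 TPM and Msx2 0.769 TPM in their highest medial library, embryo 2. Gdf7 lay at or below 0.141 TPM everywhere and was listed at 0 in all 5 medial libraries. Fgf17, a ligand gene of the rostral midline that also lay under the filter, had 9.94, 6.66, 0.281, 0.352 and 2.14 TPM medially and 0 to 0.491 (median 0.246) TPM dorsally, again highest in embryos 2 and 3. Summed over its 16 genes, the hem list reached 239.7, 202, 94.7, 68.4 and 129 TPM medially and 80.1 to 90.0 TPM dorsally, with embryo 5 below every dorsal library. Rspo3 alone made up most of the dorsal sum, and in embryo 5 Wnt5a, Bmp7, Lmx1a and Wnt8b each lay above every dorsal library.

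**Figure D2:**
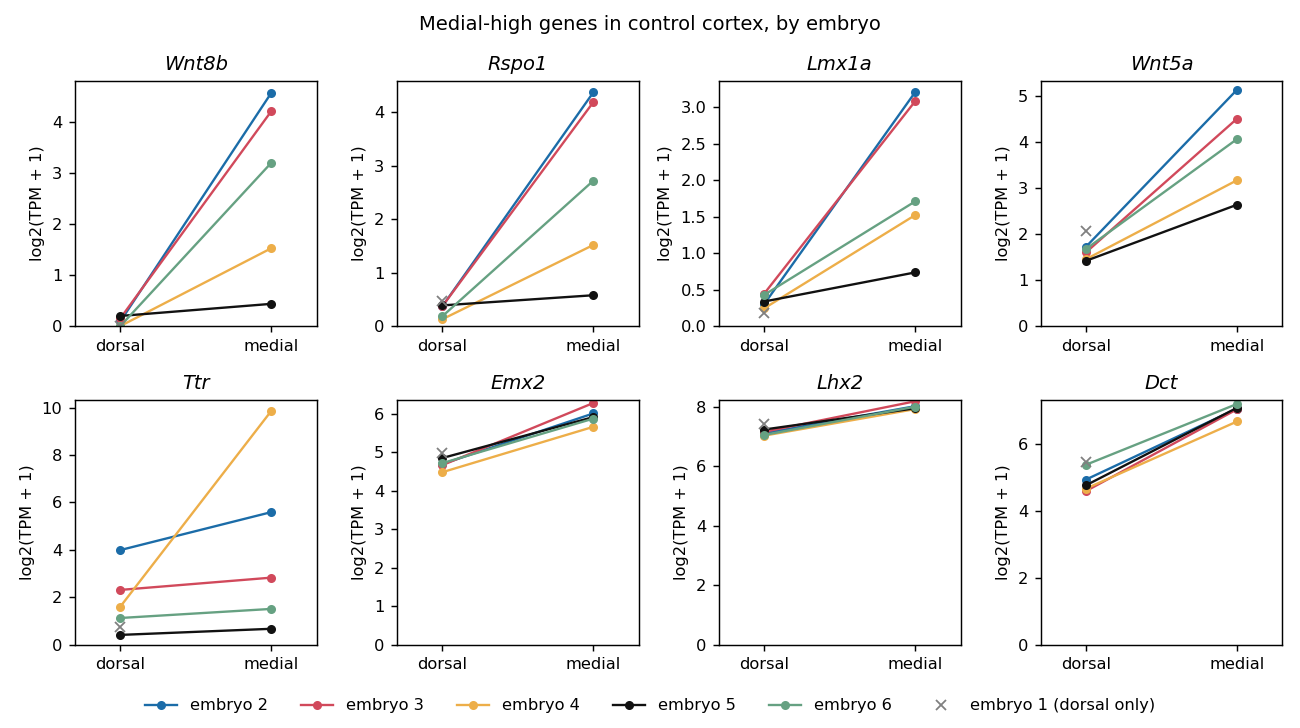
Log2(TPM + 1) of 8 genes in the dorsal and the medial library of each control embryo, joined by a line per embryo; the grey cross is the dorsal library of embryo 1, which has no partner. Wnt8b, Rspo1, Lmx1a and Wnt5a fan out from embryo 5 to embryos 2 and 3, Ttr is high medially in embryo 4, and Emx2, Lhx2 and Dct climb in parallel in all 5 embryos.

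Choroid plexus genes separated from hem genes. Ttr, the transthyretin gene and the most abundant transcript of choroid plexus (chromosome 18, 20665280 to 20674321), was at 47.2, 6.08, 934, 0.584 and 1.83 TPM in the medial libraries and 0.325 to 14.9 (median 1.61) TPM in the dorsal ones, so embryo 4 alone carried a large amount. Its change did not pass (2.21 ± 1.43, adjusted p = 0.273; adjusted p = 0.0452 without embryo 4). The defining genes under the filter gave the same picture: Clic6 had 1.79, 0.870, 10.8, 0.0607 and 0.254 TPM, Folr1 1.41, 1.89, 8.58, 0.207 and 0.541 TPM and Kcnj13 0.330, 0.0670, 3.96, 0 and 0.0979 TPM. Otx2, a transcription factor gene of choroid plexus and hem (chromosome 14, 48657677 to 48673819), was highest in embryos 2 and 3 and lowest in embryo 5, with 9.74, 7.32, 3.77, 0.349 and 3.51 TPM against 0 to 0.235 TPM (2.12 ± 0.38, adjusted p = 0.00343), so embryo 4 did not stand out as it did for Ttr; the gene passed the filter through medial libraries alone. Over the 6 tested of 17 listed choroid plexus genes, 4 were higher and none lower (median 0.68): Otx2, Cdkn1c (0.74), Foxj1 (0.62) and Enpp2 (0.42; no call without embryo 2, 4 or 6), of which Cdkn1c is also a general cell cycle inhibitor. The summed list was 304, 239, 1185, 208 and 187 TPM medially and 121 to 149 TPM dorsally, and the part of choroid plexus tissue in any other medial value of embryo 4 was not tested.

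Dct behaved differently from the hem genes. It encodes dopachrome tautomerase, an enzyme of melanin synthesis that is also transcribed in telencephalic progenitors (chromosome 14, 118012790 to 118052244). The medial libraries held 133, 132, 102, 136 and 147 TPM and the dorsal ones 23.3 to 43.4 (median 28.1) TPM, a difference of 2.15 ± 0.09 (adjusted p = 2.06e-05) with a spread of 0.25 (SD) over the 5 pairs. Embryo 5, which was lowest for the hem genes, was at the level of embryos 2 and 3. The defining pigment cell genes were nearly absent: Tyr, Pmel and Slc45a2 reached at most 0.0167, 0.167 and 0.0398 TPM in any control library, Mlana was listed at 0, Tyrp1 reached 1.40 TPM, and Oca2 and Gpnmb stayed at or below 0.287 TPM. Mitf, the remaining tested gene of the 9 listed, was higher medially by 0.42 ± 0.11 (adjusted p = 0.0147; 0.0533 without embryo 4), and passed the filter through medial libraries alone.

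Feedback and target genes of canonical Wnt signalling were mostly higher medially. Of 12 listed, 9 were tested, 6 were higher and 1 lower, with a median of 0.79 beside 0.02 for all genes. Axin2, the feedback gene most used as a readout of beta-catenin (chromosome 11, 108920349 to 108950783), had 38.3, 40, 20.9, 19.2 and 26.0 TPM medially and 11.1 to 13.3 (median 12.7) TPM dorsally (1.10 ± 0.17, adjusted p = 0.00168). Embryos 4 and 5 were the lowest medially but still above all dorsal libraries. Lef1, for a transcription factor that acts with beta-catenin (chromosome 3, 131110471 to 131224356), measured 7.34, 7.09, 4.83, 5.69 and 4.72 TPM against 1.35 to 3.00 (median 1.97) TPM (1.28 ± 0.09, adjusted p = 4.62e-05). Tnfrsf19, a receptor gene that beta-catenin activates (chromosome 14, 60963875 to 61046490), reached 194, 203, 129.7, 124 and 137 TPM against 42.0 to 50.5 (median 44.5) TPM (1.80 ± 0.12, adjusted p = 5.17e-05). Sp5, a transcription factor gene of the same kind (chromosome 2, 70474923 to 70477729), was again highest in embryos 2 and 3, at 5.49, 5.64, 1.13, 0.396 and 1.60 TPM against 0 to 0.141 TPM (1.56 ± 0.34, adjusted p = 0.00806) and passed the filter through medial libraries alone. The ubiquitin ligase gene Znrf3 (0.79 ± 0.09) and the transcription factor gene Tcf7 (0.54 ± 0.11) were higher as well. Apcdd1 (0.18) and Nkd1 (-0.04) did not pass. The member that was lower was Ccnd1, described with the cell cycle. Under the filter, Rnf43 had 1.23, 1.95, 0.434, 0.362 and 0.701 TPM medially and 0.0542 to 0.253 TPM dorsally, Notum at most 0.707 TPM and Lgr5 at most 0.149 TPM.

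RefSeq promoters (build GRCm38.p6, 250 bases before the annotated start) were available for 6 of the 9 tested target genes and were searched on both strands for the letters CTTTGAA or CTTTGAT, which TCF and LEF proteins bind. Among 32851 mouse promoters 7.48% held a match. Counted per gene, as the list is, 6.06% of 9829 tested genes with a promoter did. Of the 6 target genes 2 did, Sp5 at 104 bases before its start and Tnfrsf19 at 202. The table gives 2 starts for Tnfrsf19, and the match lies before the inner one, within the gene span printed above; none was found before the outer start. These genes had 2 of the largest medial rises of the list, but their stretches are shown because of the match. They are printed 5′ to 3′ on the strand of the gene, with the match in capitals.
Sp5, chr2:70474779-70474865, plus strand: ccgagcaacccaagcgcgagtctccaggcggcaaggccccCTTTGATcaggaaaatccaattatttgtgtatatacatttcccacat
Tnfrsf19, chr14:61038143-61038229, minus strand: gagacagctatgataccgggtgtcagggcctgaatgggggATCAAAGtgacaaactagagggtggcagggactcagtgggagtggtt
A match is a description of these letters, not evidence of binding.

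The rest of the Wnt pathway changed in parts. Among secreted antagonists, 4 of 7 tested genes (11 listed) were higher and 1 lower: Frzb, which binds Wnt proteins, by 1.71 ± 0.11 (adjusted p = 3.43e-05), Dkk3 by 1.39 ± 0.29 (adjusted p = 0.00685), Draxin by 0.45 and Sfrp2 by 0.29, with Dkk2, above the filter only dorsally, at -0.51 ± 0.10. Of 16 tested receptors and transducers (20 listed), 4 were higher and 1 lower, together a smaller share than the 46.0% called among all genes tested. The largest was Fzd9, a Frizzled receptor gene of the hippocampal primordium (chromosome 5, 135248938 to 135251230), at 90.7, 90.9, 51.5, 48.5 and 63.2 TPM against 13.9 to 20.9 (median 17.3) TPM (1.94 ± 0.11, adjusted p = 3.3e-05), with Ror2 (0.88), Fzd7 (0.70) and Lgr4 (0.50; no call without embryo 2 or 6) beside it and Fzd8 lower (-0.67). Ligand genes outside the hem list were mostly silent, and 11 of 14 stayed under the filter. Among these 11, Wnt9a and Wnt10a reached up to 4.03 and 2.66 TPM, each with 1 TPM or more in 2 medial libraries and 0 dorsal ones. Wnt7b, a ligand of cortical neurons and progenitors (chromosome 15, 85535437 to 85582473), was lower medially in every embryo, at 72.8, 86.6, 108, 114 and 116 TPM against 193 to 266 (median 240.4) TPM (-1.32 ± 0.09, adjusted p = 6.25e-05), while Wnt7a (0.02) and Wnt5b (0.20) did not pass.

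BMP targets were mixed. Id3, a gene that BMP signalling turns on (chromosome 4, 136143497 to 136145755), was the largest, at 57.7, 46.9, 15.5, 11.3 and 33.3 TPM medially and 4.37 to 6.73 (median 5.67) TPM dorsally (2.07 ± 0.31, adjusted p = 0.00152), and it was lowest medially in embryos 4 and 5. The BMP antagonist gene Grem1 (0.85 ± 0.10, adjusted p = 0.000382), Id4 (0.70), Fst (0.56) and Smad7 (0.25) were also higher, whereas Id2 (-0.69) and Bmper (-0.63) were lower. That made 5 higher and 2 lower of 12 tested (16 listed), with a median of 0.20. Receptor and Smad genes had 1 higher, Bmpr1a (0.27), and 3 lower of 9, led by the receptor gene Bmpr1b (-0.68 ± 0.07, adjusted p = 0.000139), with a median of 0.03.

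Transcription factors and other genes of the medial pallium were higher almost throughout. All 20 listed genes were tested, 18 were higher and none lower, with a median of 1.24. Of these, 2 reached 1 TPM in no dorsal library, Prox1 and Zic4, so their excess follows from how they entered the test. Emx2, which patterns the cortex from its medial and caudal side (chromosome 19, 59458372 to 59465357), measured 63.6, 77.0, 49.8, 59.5 and 57.9 TPM against 21.4 to 30.7 (median 25.1) TPM (1.27 ± 0.07, adjusted p = 3.08e-05). Lhx2, which keeps cortical progenitors from hem fate (chromosome 2, 38339281 to 38369733), measured 260.3, 292, 243, 248 and 257 TPM against 130.3 to 170.2 (median 140.3) TPM (0.90 ± 0.04, adjusted p = 2.06e-05). Both were even, with spreads over the pairs of 0.22 and 0.12 (SD), beside 1.78 for Wnt8b. Prox1, the factor gene of future dentate gyrus (chromosome 1, 190118035 to 190170714), was low but higher in each medial library, at 6.09, 5.90, 2.90, 2.28 and 3.48 TPM against 0.254 to 0.672 (median 0.404) TPM (1.82 ± 0.20, adjusted p = 0.000283). Dmrt3 (1.69 ± 0.11), Dmrta2 (0.85 ± 0.07) and the hippocampal factor gene Zbtb20 (0.85 ± 0.19) were higher too.

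The Zic zinc finger genes, which are active along the dorsal midline and in the septum, rose together. Zic1 (chromosome 9, 91358058 to 91365810) had 99.8, 77.0, 25.0, 20.6 and 50.8 TPM medially and 6.11 to 10.8 (median 7.55) TPM dorsally (2.50 ± 0.37, adjusted p = 0.00193), with embryos 2 and 3 the highest, as for the hem genes. Zic4 (1.86), Zic5 (1.46) and Zic2 (1.38) were higher. Zic4 passed the filter through medial libraries alone and lost the call without embryo 3 (adjusted p = 0.0652) or embryo 6 (0.0566). Fgf17, of the same septal and rostral midline list, is given with the hem genes; of the others, Six3 and Nkx2-1 reached at most 0.0654 and 0.156 TPM, and Fgf8 at most 0.310 TPM. With single embryos left out, 13 to 18 of the 20 medial pallium genes were higher, and Ephb1, Foxo1 and Dmrta1 were among those that lost a call. Nfix was higher by 0.48, while Nfia (0.18) and Nfib (-0.11) did not pass.

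Genes that pattern cortical areas and lateral cortex went both ways. Of 20 area genes 8 were higher and 8 lower (median 0.08). Besides those above, the rostral factor gene Sp8 (1.35 ± 0.11, adjusted p = 6.95e-05), Lmo4 (0.91 ± 0.10), Pax6 (0.39 ± 0.03) and Emx1 (0.33) were higher. Rorb, a factor gene of layer 4 neurons (-1.28 ± 0.11, adjusted p = 8.71e-05), Pbx3 (-0.76), the ETS factor genes Etv1 (-0.75) and Etv5 (-0.74), Tbr1 and the caudal and lateral factor gene Nr2f1 (-0.37) were among the lower genes. Of 9 tested genes of the antihem and lateral pallium (12 listed), 4 were lower and 2 higher (median -0.21), with Tfap2d (-1.05 ± 0.11), which passed the filter through dorsal libraries alone, and Nrg3 (-0.81 ± 0.08) the lowest.

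Cajal-Retzius cell genes were higher medially with 1 exception. Reln, the reelin gene (chromosome 5, 21884454 to 22344702), measured 91.8, 73.5, 67.3, 94.7 and 68.3 TPM against 46.3 to 59.0 (median 52.5) TPM (0.55 ± 0.09, adjusted p = 0.00272). Trp73, a p53 relative that marks hem-derived Cajal-Retzius cells (chromosome 4, 154056253 to 154140208), measured 8.06, 9.16, 4.69, 5.73 and 5.61 TPM against 2.34 to 3.92 (median 3.04) TPM (0.89 ± 0.13, adjusted p = 0.000812). Embryo 5 had the highest Reln of the 5 medial libraries, unlike its place in the hem genes. Calb2 (1.65 ± 0.21) did keep the embryo order of Wnt8b, with 48.5, 40.7 and 34.0 TPM in embryos 2, 3 and 6 and lower levels in embryo 4 and, lowest, in embryo 5, all above the dorsal range. Calb2, Nhlh2 (1.07 ± 0.07), Lhx5 (0.77 ± 0.17), Cxcr4 (0.72), Cacna2d2 (0.57), Ebf2 (0.57; above the filter only medially) and Ebf3 (0.44) completed the 9 of 10 tested genes that were higher, with a median of 0.65. Ndnf was lower (-0.35 ± 0.09, adjusted p = 0.0148; 0.0525 without embryo 3), and Lhx1 stayed under the filter at up to 1.18 TPM.

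Notch pathway genes, whose signal keeps radial glia undifferentiated, were higher for 12 of 16 tested genes and lower for 2 (17 listed), with a median of 0.48. Hey2, a Notch target gene (chromosome 10, 30832359 to 30842801), stood out at 32.5, 29.9, 18.2, 12.6 and 15.2 TPM medially and 2.90 to 4.77 (median 3.35) TPM dorsally (2.26 ± 0.15, adjusted p = 3.71e-05). Hes5, the main Notch effector gene of cortical progenitors (chromosome 4, 154960923 to 154962371), reached 198, 220.1, 137, 155 and 150.5 TPM against 65.6 to 89.5 (median 77.2) TPM (1.14 ± 0.08, adjusted p = 7.68e-05). Hes1 (chromosome 16, 30064384 to 30067796) had 100.3, 106, 90.5, 83.8 and 97.9 TPM against 43.4 to 57.1 (median 50.2) TPM (0.91 ± 0.04, adjusted p = 2.06e-05), and Lfng, whose product modifies Notch receptors (chromosome 5, 140607320 to 140615545), 88.3, 81.2, 64.1, 66.9 and 73.4 TPM against 35.1 to 45.9 (median 40.3) TPM (0.91 ± 0.07, adjusted p = 5.7e-05). For these 4 genes no medial library overlapped the dorsal range. The ligand genes split: Dll1 (0.71) and Dll3 (0.43) were higher, Jag1 (-0.21) and Jag2 (-0.38) lower, with no call for Jag1 without embryo 2 and none for Jag2 without embryo 4 or 5, and Dll4 did not pass. The receptor genes Notch1 (0.49), Notch2 (0.38) and Notch3 (0.49), the target genes Nrarp (0.72) and Hey1 (0.47) and the modifier gene Mfng (0.18) were higher.

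Promoters of 13 of the 16 Notch genes were searched in the same way for GTGGGAA, the letters bound by RBPJ, the DNA-binding partner of Notch. Of all promoters 5.42% held a match, and counted per gene, as the list is, 6.49% of 9829 tested genes with a promoter did. Of the 13 Notch genes 3 did: Hes5 (at 226 and 83 bases before the start), Hey2 (207) and Lfng (109). These are 3 of the 4 genes with the largest changes of the list, chosen here because of the match. The stretches are printed in the direction of the gene, with GTGGGAA or its reverse complement in capitals.
Hes5, chr4:154960673-154960886, plus strand: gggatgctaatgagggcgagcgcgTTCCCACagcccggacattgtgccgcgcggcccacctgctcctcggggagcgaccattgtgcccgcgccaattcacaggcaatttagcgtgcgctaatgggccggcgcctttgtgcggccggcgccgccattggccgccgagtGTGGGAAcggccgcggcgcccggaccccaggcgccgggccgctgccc
Hey2, chr10:30842944-30843030, minus strand: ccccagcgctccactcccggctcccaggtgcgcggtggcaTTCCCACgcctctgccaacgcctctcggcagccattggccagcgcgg
Lfng, chr5:140607192-140607278, plus strand: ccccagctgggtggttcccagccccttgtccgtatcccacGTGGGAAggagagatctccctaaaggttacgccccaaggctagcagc
These letters occur by themselves in many promoters and say nothing of RBPJ occupancy in this tissue.

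Radial glia genes were mostly higher, 16 of 23 against 5 lower, with a median of 0.46. Sox2, the stem cell factor gene (chromosome 3, 34650405 to 34652461), was at 336, 345, 318, 301 and 319 TPM medially and 206 to 238 (median 223) TPM dorsally (0.55 ± 0.03, adjusted p = 2.2e-05), and Pax6 (chromosome 2, 105668900 to 105697364) at 45.4, 46.0, 42.9, 47.8 and 46.5 TPM against 32.4 to 38.7 (median 34.5) TPM (0.39 ± 0.03, adjusted p = 8.06e-05). Hopx, best known as a marker of outer radial glia in large-brained species and found at the medial cortex of the mouse (chromosome 5, 77086988 to 77115121), had 87.2, 57.2, 38.6, 24.5 and 50.2 TPM against 12.1 to 22.7 (median 19.4) TPM (1.40 ± 0.21, adjusted p = 0.00164). Its medial level was highest in embryo 2 and lowest in embryo 5, which lay just above the highest dorsal library. Ttyh1 (0.90), Pdpn (0.86), Sox9 (0.71), Sox3 (0.60), the serine synthesis gene Phgdh (0.59), and the intermediate filament genes Vim (0.53) and Nes (0.46) were higher. Those lower were the growth factor gene Ptn, at 265, 218, 258, 240.2 and 268 TPM against 316 to 384 (median 343) TPM (-0.50 ± 0.03, adjusted p = 3.71e-05), its receptor gene Ptprz1 (-0.39), Ednrb (-0.50), Ddah1 (-0.46) and Sox1 (-0.16; no call without embryo 2, 3 or 5).

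Intermediate progenitor genes were higher for 13 of 17, with Insm1 the only lower one (-0.33), and a median of 0.43. Eomes, the defining factor gene of these cells (chromosome 9, 118478212 to 118486132), differed little, at 232, 247, 257, 262 and 252 TPM against 189 to 234 (median 204) TPM (0.32 ± 0.03, adjusted p = 0.000186), and the proneural gene Neurog2 likewise (0.32 ± 0.03, adjusted p = 8.66e-05). Larger changes were those of Mfap4, a matrix protein gene (chromosome 11, 61485431 to 61488900), at 96.9, 98.3, 78.7, 67.5 and 79.9 TPM against 33.4 to 45.2 (median 35.7) TPM (1.22 ± 0.09, adjusted p = 8.69e-05), Tac2 (0.89), Neurod4 (0.83) and Neurod1 (0.71).

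Cell division genes were a little higher medially, throughout the G2 and M list and for most of the S-phase list. All 45 genes of the G2 and M phases were tested and all 45 were higher, from 0.26 for Cdc25b to 0.59 for Cenpf, with a median of 0.41. Bub1b, a spindle checkpoint gene (chromosome 2, 118598211 to 118641591), measured 143, 146, 133, 157 and 131 TPM against 94.7 to 114 (median 103) TPM (0.49 ± 0.03, adjusted p = 2.2e-05), and Cenpa, for the centromeric histone, 88.5, 83.0, 82.0, 82.5 and 79.5 TPM against 56.4 to 66.2 (median 58.1) TPM (0.47 ± 0.03, adjusted p = 3.64e-05). Of 44 S-phase genes 39 were higher and none lower (median 0.31), among them the replication licensing gene Mcm3 (0.36 ± 0.02), Dtl (0.59 ± 0.04) and Ccne1 (0.74). Summed TPM of the G2 and M genes was 4109, 4192, 3922, 4508 and 3776 medially and 2872 to 3390.0 dorsally, with embryo 5, the lowest in hem genes, the highest.

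The D cyclins and their kinases split. Ccnd1, the cyclin D1 gene (chromosome 7, 144929931 to 144939925), was lower medially in all 5 embryos, with 14.2, 13.8, 15.7, 29.6 and 15 TPM against 46.9 to 53.3 (median 50.2) TPM (-1.52 ± 0.14, adjusted p = 0.00015). Embryo 5 was again closest to dorsal cortex. Cdk6, the kinase gene in the study's title and a partner of the D cyclins (chromosome 5, 3341485 to 3531008), had 9.95, 7.07, 15.3, 17.8 and 12.4 TPM against 15.6 to 27.1 (median 21.0) TPM (-0.72 ± 0.17, adjusted p = 0.0102), lower in each pair although the ranges of the regions overlapped. Ccnd2, the cyclin D2 gene (chromosome 6, 127125162 to 127152193), went the other way, at 283, 306, 254, 303 and 252 TPM against 176 to 234 (median 195) TPM (0.55 ± 0.03, adjusted p = 2.06e-05). Ccnd3 (0.38 ± 0.06) and Cdk4 (0.14 ± 0.03) were higher as well. Of the inhibitors, Cdkn1c (chromosome 7, 143458339 to 143461050) was higher at 217, 197, 173, 193 and 163 TPM against 105 to 119 (median 113) TPM (0.74 ± 0.04, adjusted p = 2.96e-05), Cdkn1a and Cdkn2c were higher by 0.61 and 0.25, and Cdkn1b was lower (-0.20 ± 0.03). Without embryo 2, the adjusted p of Cdkn1a was 0.0571.

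**Figure D3:**
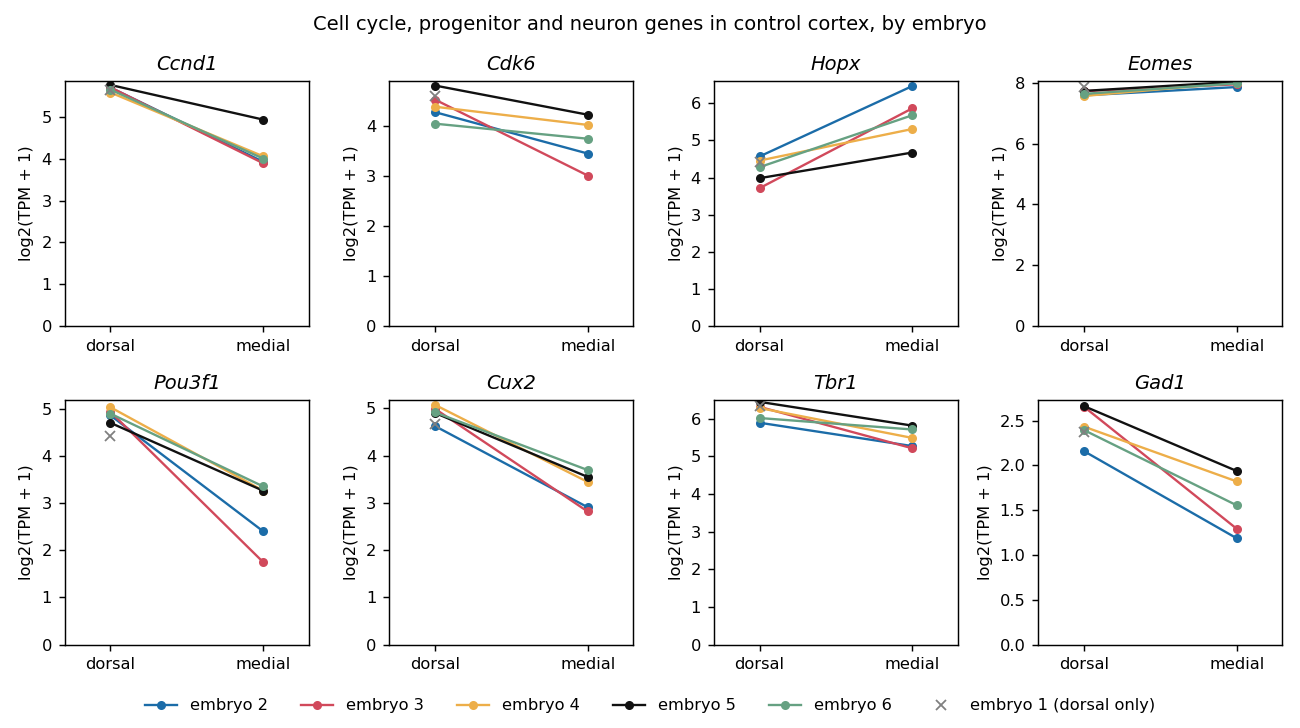
Log2(TPM + 1) of 8 cell cycle, progenitor and neuron genes in the dorsal and the medial library of each control embryo, joined by a line per embryo; the grey cross is dorsal library 1. Ccnd1, Cdk6, Pou3f1, Cux2, Tbr1 and Gad1 fall from dorsal to medial in every pair, Hopx rises in every pair and Eomes rises slightly.

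Neuronal genes were lower medially. Of 23 tested pan-neuronal genes (24 listed) 20 were lower and 1 higher, with a median of -0.49. Tubb3, the neuronal tubulin gene (chromosome 8, 123411424 to 123422015), had 2201, 1972, 2255, 2004 and 2466 TPM against 2561 to 3150.0 (median 2810.0) TPM (-0.42 ± 0.03, adjusted p = 3.32e-05), and Snap25, of synaptic vesicle fusion, 29.5, 28.6, 31.9, 26.8 and 36.6 TPM against 39.7 to 51.0 (median 46.3) TPM (-0.59 ± 0.05, adjusted p = 7.64e-05). The largest falls in the list were Myt1l (-0.97), Cntn2 (-0.90) and Syt1 (-0.78). The member that was higher was the neurofilament gene Nefl (0.79), with no call without embryo 2, 3 or 6.

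Upper-layer projection neuron genes gave some of the largest falls, with 12 of 16 lower and 3 higher (17 listed; median -0.42). Pou3f1, a POU factor gene (chromosome 4, 124656807 to 124660655), had 4.30, 2.37, 8.64, 8.64 and 9.27 TPM against 20.5 to 31.9 (median 28.6) TPM (-2.08 ± 0.25, adjusted p = 0.000478), and Cux2 (chromosome 5, 121856366 to 122050102) 6.49, 6.04, 9.86, 10.7 and 11.9 TPM against 23.6 to 32.6 (median 29.0) TPM (-1.62 ± 0.13, adjusted p = 8.04e-05). In both genes embryos 2 and 3 were the lowest, the reverse of their place in the hem genes. Inhba (-1.48; above the filter in dorsal libraries alone) and Pou3f2 (-1.27 ± 0.14) were lower, and Lmo4 (0.91) and Dok5 (0.91) were the larger of the higher members.

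Deep-layer genes were lower for 11 of 21 and higher for 4, with a median of -0.45. Tbr1, the factor gene of corticothalamic neurons (chromosome 2, 61802930 to 61814114), had 37.6, 36.0, 43.8, 55.2 and 51.3 TPM against 58.2 to 86.0 (median 77.5) TPM (-0.69 ± 0.10, adjusted p = 0.00115). Nfe2l3 (-1.64 ± 0.15), Ldb2 (-1.49 ± 0.08), Lpl (-1.30), the heparan sulfate sulfotransferase gene Hs3st4 (-1.18 ± 0.09) and Sox5 (-1.03) were lower, while Fezf2 (-0.12) and Foxp2 (-0.05) did not pass. Crym, given above, was the large exception, and Zfpm2 (0.51), Pde1a (0.49) and Nxph4 (0.33) were higher.

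Interneuron genes, which mark inhibitory neurons that migrate in from the ventral forebrain, were lower for 14 of 21 tested and higher for 4 (22 listed), with the lowest median of these lists, -0.86. Gad1, for the enzyme that makes the transmitter GABA (chromosome 2, 70553072 to 70602014), had 1.27, 1.45, 2.53, 2.83 and 1.94 TPM against 3.46 to 5.32 (median 4.32) TPM (-0.90 ± 0.11, adjusted p = 0.000435). Npy (5.55, 6.77, 9.38, 7.97 and 5.71 TPM against 15.3 to 25.6 (median 24.0) TPM; -1.58 ± 0.08, adjusted p = 2.06e-05) and Sst (8.39, 7.11, 19.9, 15.7 and 10.6 TPM against 28.0 to 39.3 (median 33.0) TPM; -1.46 ± 0.14, adjusted p = 0.000222), for the peptides neuropeptide Y and somatostatin, fell further. Lhx6, the factor gene of interneurons from the medial ganglionic eminence, was lower by 0.99 on the log2 scale, and Dlx1 was at -1.12 ± 0.13. Those that were higher included Sp8, Cxcr4 and Htr3a (0.35; no call without embryo 4, 5 or 6), among them genes that cortical progenitors or Cajal-Retzius cells also use. Ventral progenitor genes were low in both regions: Gsx2, Nkx2-1 and Lhx8 reached at most 0.271, 0.156 and 0.0781 TPM in any control library. Of 5 tested striatal genes (15 listed) 3 were lower, Drd1 (-1.41 ± 0.12), Meis2 (-0.53) and Penk (-0.44), the last with no call without embryo 2, 3, 4 or 5.

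**Figure D4:**
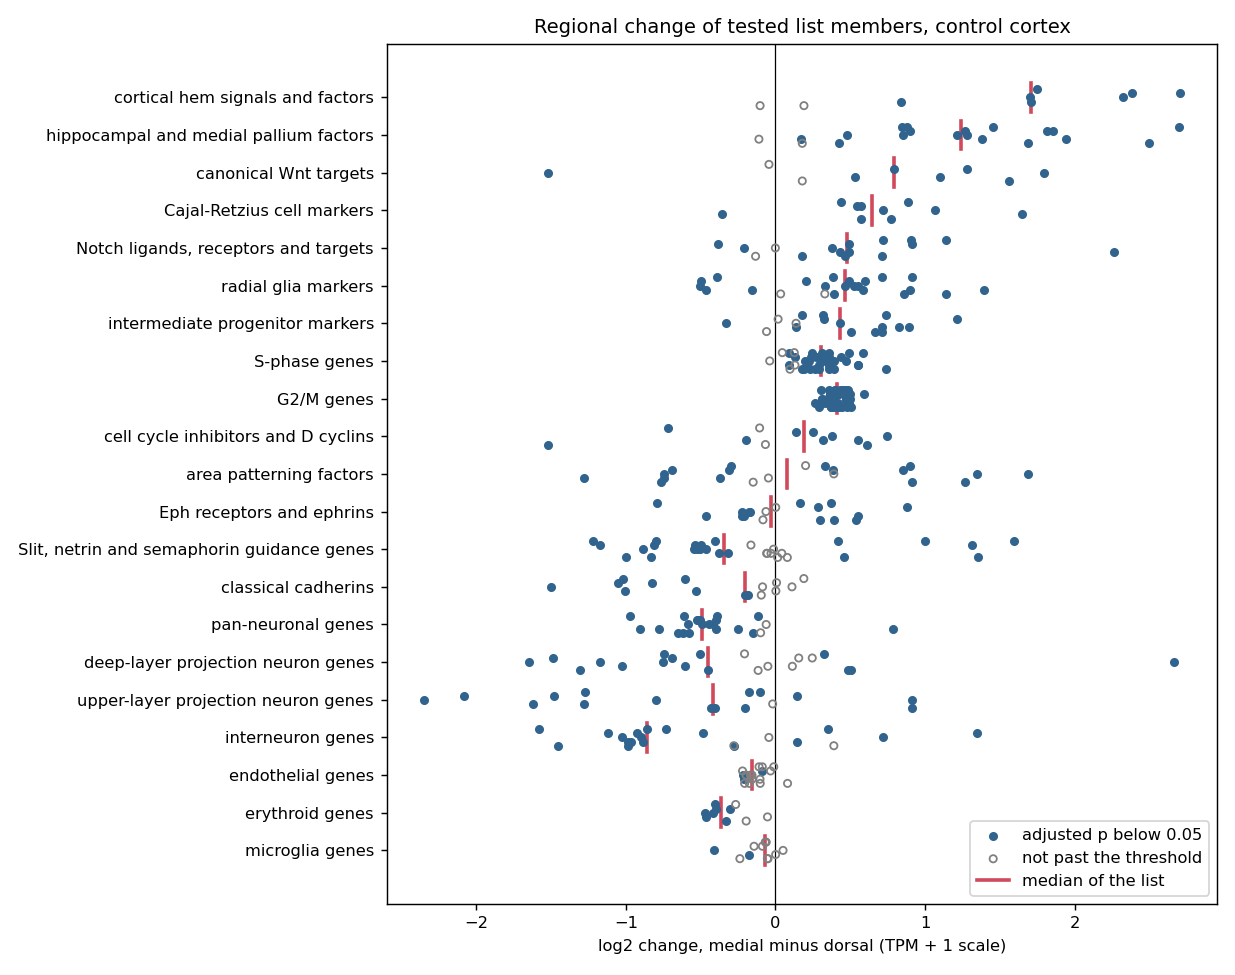
Log2 change (medial minus dorsal, TPM + 1 scale) of each tested member of 21 gene lists in control cortex; blue points pass the threshold, open points do not and red bars are list medians. Hem and medial pallium genes have the highest medians (1.71 and 1.24), G2 and M genes form a tight band around 0.41 and interneuron genes have the lowest median (-0.86).

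Axon guidance and adhesion genes went both ways, also within families. Slit2 (chromosome 5, 47983138 to 48307733) and Slit3, repellent ligands of the midline, were higher at 14.6, 15.3, 7.80, 7.43 and 8.63 TPM against 2.23 to 3.16 (median 2.79) TPM (1.60 ± 0.16, adjusted p = 0.000173) and 3.50, 3.63, 2.31, 1.80 and 2.75 TPM against 0.337 to 0.603 (median 0.440) TPM (1.36 ± 0.13, adjusted p = 0.000141), the latter above the filter only medially. Their relative Slit1 was lower (-0.54), as were the receptor genes Robo2, at 20.6, 18.6, 34.5, 33.3 and 35.7 TPM against 54.6 to 70.8 (median 63.0) TPM (-1.17 ± 0.12, adjusted p = 0.000225), and Robo1 (-0.50). The netrin gene Ntn1 (1.00; no call without embryo 2, 3 or 6) and its receptor gene Dcc (0.46; none without embryo 3 or 6) were higher and Ntn4 lower (-1.0 ± 0.08); of the semaphorin receptor genes, Nrp2 was higher (1.32) and Nrp1 lower (-0.46 ± 0.05). The 30 tested guidance genes (32 listed) comprised 6 higher and 16 lower, with a median of -0.35. Classical cadherins were lower for 9 of 15 tested (17 listed) and higher for none, led by Cdh12 (-1.50 ± 0.10), Cdh8 (-1.05 ± 0.17), Cdh4 (-1.02 ± 0.11) and Cdh6 (-1.01 ± 0.13), while Cdh2, the cadherin of progenitor junctions, was at -0.09 and did not pass. Eph receptors and ephrins had 8 higher and 7 lower of 18 tested (22 listed; median -0.03), from Ephb1 (0.88) to Epha3 (-0.79 ± 0.12), with 5 higher without embryo 2, 4 higher without embryo 3, and 4 lower without embryo 3, 4 or 5.

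Other signalling lists were mixed. Of 9 tested FGF genes (19 listed) 3 were higher, with Fgf2 the largest (0.94 ± 0.10, adjusted p = 0.000196; through the filter by medial libraries alone), and 4 lower, including Fgf18 (-0.49). The 11 tested ERK feedback genes (13 listed) had 2 higher, Il17rd (1.10) and Dusp4 (0.81), and 2 lower, Etv1 and Etv5, with 4 higher without embryo 5. Neither ERK share exceeded that of all genes tested (25.3% higher and 20.7% lower) with all embryos in. In the retinoic acid list 7 of 15 were tested. The carrier genes Crabp1, at 51.9, 65.2, 48.2, 39.2 and 59.0 TPM against 10.2 to 23.3 (median 17.5) TPM (1.64 ± 0.14, adjusted p = 0.000131), and Crabp2 (0.91 ± 0.11) were higher, and Dhrs3, Rarg and Rara were lower by small amounts; the list had 4 lower genes, against 2 without embryo 3 or 4 and 1 without embryo 5. Of 8 tested Hedgehog genes (12 listed) 5 were higher and 1 lower. Smo (0.56 ± 0.03, adjusted p = 2.6e-05) and the co-receptor genes Cdon (0.46 ± 0.05) and Gas1 (0.29 ± 0.03) were higher, the target gene Ptch1 lower (-0.32 ± 0.08, adjusted p = 0.0125), and Gli1 and Shh stayed under the filter at up to 1.08 and 0.175 TPM. Thyroid hormone genes had 4 higher and 3 lower of 8 tested (10 listed): beside Crym, the activating deiodinase gene Dio2 (1.19) and the response gene Klf9 (0.65 ± 0.15) were higher, and the receptor genes Thra (-0.39 ± 0.04) and Thrb (-0.61 ± 0.10; above the filter only dorsally) and the corepressor gene Hr (-0.47 ± 0.07) lower.

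Markers of cells from outside the neural lineage were weighed by level. Summed erythroid genes were 3045, 3617, 4456, 3774 and 4351 TPM medially and 4343 to 5999 TPM dorsally, and 7 of 10 tested genes were lower (median -0.36; 3 without the embryo block), with the near-identical pairs Hba-a1 and Hba-a2, and Hbb-bs and Hbb-bt, hard to tell apart by reads. Endothelial genes were lower for 4 of 18, a share near the 20.7% of all genes tested, and higher for none. The count of lower genes was 1 without embryo 2 or 3, 2 without embryo 4 or 5, 0 without the embryo block and 9 after quantile normalization. Summed endothelial genes were 198 to 236 TPM medially and 225 to 248 TPM dorsally. Of 8 tested pericyte genes 5 were lower (3 without embryo 3, 4 or 5) and Notch3 higher. Of 11 microglia genes 2 were lower, a share no higher than the 20.7% of all genes tested, among them C1qa (-0.18), with no call without embryo 2, 4, 5 or 6. Meningeal and fibroblast genes were low: 7 of 18 were tested, Dcn (1.36 ± 0.44) and Crabp2 were higher, Cxcl12 (-0.83 ± 0.08) and Foxc1 (-0.28) lower, with Dcn losing its call without embryo 2, 3 or 6 and Foxc1 without embryo 2, 3, 4 or 6, and the collagen genes Col1a1 and Col1a2 reached at most 2.69 and 2.88 TPM. Diencephalic genes other than Lhx9, Barhl2 (0.36; no call without embryo 2, 3 or 5) and Tcf7l2 stayed below 1 TPM in all control libraries. The part of these cells in the regional differences was not tested.

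The regional difference was set against the same difference in the GFAP::Cre; SmoM2 mutants (4 pairs of libraries), which share no library with the controls. Of 13255 genes 2321 (17.5%) were higher and 2605 (19.7%) lower medially in mutants. Among the 6099 genes called in controls, 5893 (96.6%) had the same sign in mutants and 4105 were called there in that direction; Pearson's r of the 2 changes over these genes, which are not independent, was 0.91. For the 288 genes with at least a 2-fold change in controls, 285 shared the sign, and the median size was 1.26 in controls and 0.94 in mutants, a comparison in which the genes were chosen for their size in controls. Emx2 changed by 1.27 ± 0.09 in mutants and 1.27 ± 0.07 in controls, Lhx2 by 0.80 ± 0.06 and 0.90 ± 0.04, Pou3f1 by -1.62 ± 0.25 and -2.08 ± 0.25, and Dct by 2.87 ± 0.40 and 2.15 ± 0.09.

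A test of the difference itself (control change minus mutant change, 18 paired libraries) called 15 genes, 0.113% of those tested, 9 higher and 6 lower. Ccnd1 had the largest difference: it fell medially in controls (-1.52 ± 0.14) and did not pass in mutants (-0.13 ± 0.14, adjusted p = 0.52), where it lay at 113 to 129 TPM medially and 120.3 to 155 TPM dorsally (difference -1.39 ± 0.19, adjusted p = 0.0448). Cdk6 had a difference of -0.71 ± 0.25 that did not pass (adjusted p = 0.388). Cacng5, for an AMPA receptor auxiliary subunit (difference -0.91 ± 0.10), and Sox1 (-0.67 ± 0.09) were a little lower medially in controls and higher in mutants, as was Lypd1 (-1.25 ± 0.16). The control call of Cacng5 (adjusted p = 0.0366) was lost without any 1 of the 5 embryos, without the block (0.322) and with a random block (0.0823). Prokr1 (-0.81 ± 0.09) and the pyruvate carboxylase gene Pcx (-0.30 ± 0.05) were lower medially in controls and did not pass in mutants (changes of 0.00 ± 0.07 and 0.09 ± 0.04). In the other direction, the medial excess was larger in controls for Mfap4 (1.22 ± 0.09 against 0.40 ± 0.09; difference 0.81 ± 0.13, adjusted p = 0.0448), the metalloprotease gene Adamts9 (0.76 ± 0.10), Kcnip3 (0.56 ± 0.09), Cdkn1c (0.51 ± 0.07), Nt5dc2 (0.49 ± 0.07) and Hes1 (0.91 ± 0.04 against 0.50 ± 0.05; 0.42 ± 0.07). Alcam, an adhesion gene, was lower in both genotypes and less so in controls (0.64 ± 0.09), Pxylp1 was higher in controls and lower in mutants (0.59 ± 0.07), and Gtf2f2 was the remaining call. These calls were few and unsteady: without control embryo 2 none was left at the threshold, with 927 genes at an unadjusted p under 0.05 in limma, and without mutant embryo 3 just 1 was left, with 1127 such genes.

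**Figure D5:**
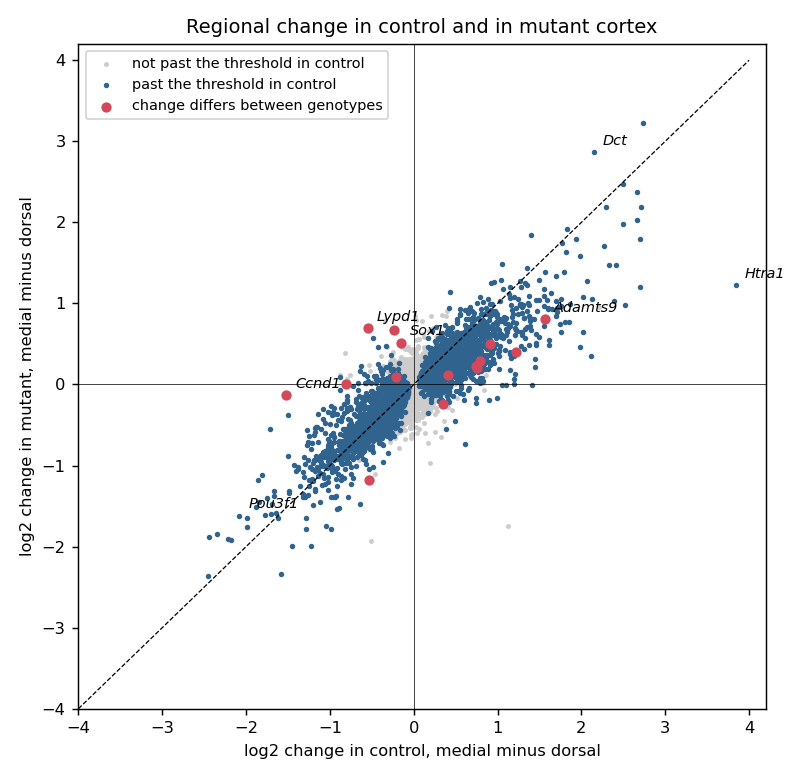
Log2 change medial minus dorsal in mutant cortex against that in control cortex, one point per tested gene; blue genes pass the threshold in controls, red genes differ between genotypes and the dashed line marks equal change. Most blue genes lie along the line, while Ccnd1 lies at -1.52 in controls and near 0 in mutants.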

How the data were processed

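Total RNA from dissected E14.5 cortex was extracted (RNeasy Micro) and made into stranded total RNA libraries (TruSeq), per the labels' protocols. The authors deposited 1 table of TPM values for 19 libraries and 47643 gene symbols on build mm10, per the submitters' processing notes; each column sums to 1000000, so sequencing depth is unknown and no counting error can be given. The sources used here do not give the aligner, quantifier, annotation or use of strand, so genes that overlap on opposite strands may share reads.

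Groups came from titles and tissue labels. Control medial and dorsal libraries were paired by title number. Deviations from the group means correlated within all 5 pairs (r from 0.535 to 0.8). Of the medial libraries, 5 of 5 were closest to their own number, whereas the numbers in the description field gave r from -0.458 to 0.109. Between different title numbers r ran from -0.514 to 0.595, the highest being medial library 5 with dorsal library 1. A shared deviation therefore does not by itself mark an embryo. The pairing rests on the title numbers and on these values. The 10 paired libraries were fitted on log2(TPM + 1) in limma 3.58.1 (R 4.3.3) with embryo as a block, mean-variance trend and robust empirical Bayes, on genes that reached 1 TPM in 4 or more of the 11 control libraries; p-values were adjusted by Benjamini and Hochberg over 13255 genes. With 4 residual degrees of freedom the spread rests largely on moderation across genes. The genotype difference used 18 libraries with embryo as a block. On simulated data, 95.5% of 67 genes changed by 1 (log2) were called, and 6.63% of calls were false. There only a small share of the 13255 genes was changed, and the noise was independent between genes. In the real comparison 46.0% of genes passed, mostly with small changes, so these shares need not hold for it.

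Alternatives were another pseudocount (0.1), no filter, a filter of 5 TPM, median-ratio and quantile scaling, no block, a random block (statmod 1.5.0), plain moderation, 1 fit over both genotypes and leaving out each embryo. Genes are named by rule: the 15 largest rises and falls changed the same way in all 5 embryos, without predicted, small RNA, mitochondrial, pseudogene and sex-linked names; up to 6 members per list by adjusted p; 20 genes always; the 8 largest genotype differences each way; and single members to account for a list. Some genes that the rule covers are not reported here, although counts, medians and sums of lists include them. The genes, 42 lists and rules were chosen with earlier results of these data known. Positions are whole genes of GENCODE M21 (GRCm38). Tables and plots were made with Python 3.11.15, pandas 2.3.3 and matplotlib 3.10.9.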

Additional observations from a re-analysis of the deposited data

Results flagged for a closer look

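The 5 paired differences (medial minus dorsal, log2 scale) of each of 324 named genes were searched for 1 embryo lying far from the other 4 (gap over range above 0.71, Dixon's 95% value). Chance gives this for about 1 gene in 20, and 15 were found. That is no more than chance gives over 324 genes, so any single flag below may be chance. Embryo 4 was the one apart for Ttr (8.26) and Aqp1 (2.46), both choroid plexus genes, and for Cacng5 (-0.10) and Cspg4 (-0.54). Embryo 5 lay apart, on the side of the smaller change, for the medial pallium gene Dmrt3 (1.13), the BMP antagonist gene Fst (0.29), Hs3st5 (-1.19), the area gene Lmo4 (0.41) and the proneural gene Neurod1 (0.14). Embryo 2 lay apart for the Hedgehog co-receptor gene Boc (0.00), for the Notch modifier gene Mfng (0.04) and for Rorb (-0.79), embryo 3 for the thyroid hormone receptor gene Thrb (-0.83) and embryo 6 for Alcam (-0.32) and Pbx3 (-0.51).

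The regional change differed between control and mutant cortex, by the test of the difference in limma, for 15 genes, of which 14 are named by the rule. Control minus mutant change was -1.39 for Ccnd1, -1.25 for Lypd1, -0.91 for Cacng5, -0.81 for Prokr1, -0.67 for Sox1 and -0.30 for Pcx. It was 0.81 for Mfap4, 0.76 for Adamts9, 0.64 for Alcam, 0.59 for Pxylp1, 0.56 for Kcnip3, 0.51 for Cdkn1c, 0.49 for Nt5dc2 and 0.42 for Hes1. Adjusted p ran from 0.0123 for Cacng5 to 0.0448 for Ccnd1, and over the 236 alternative fits of these genes 135 lost the call.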

How the results depend on the processing

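The counts of genes higher and lower medially stayed within 1.5 times of 3353 and 2746 under the 14 alternatives: 2403 and 2115 with no replicate block (11 libraries), 3441 and 2973 with a random block, 3170 and 2481 with no filter, 2944 and 2446 with the filter of 5 TPM, and 2707 to 3050 and 2125 to 2837 with each embryo left out. The excess of higher over lower calls nearly vanished with rescaling: 3147 and 3049 with median-ratio rescaling, 3228 and 3175 with quantile normalization. The median of all genes stayed between 0.00 and 0.02.

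The genotype difference was not steady. Against 9 higher and 6 lower genes, the counts were 5 and 4 with a pseudocount of 0.1, 2 and 2 with no filter, 3 and 6 with median-ratio rescaling, 5 and 9 with quantile normalization, 0 and 1 with no replicate block (441 genes at an unadjusted p under 0.05 in limma), 24 and 20 with a random block, and 1 and 2 with plain moderation. With single embryos left out they were 0 to 8 higher and 0 to 5 lower; no gene was left without control embryo 2 (927 at an unadjusted p under 0.05), and without mutant embryo 3 there were 0 higher and 1 lower (1127). The cause was not tested.

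Of 287 named genes that were called, 236 were called under every alternative run; 38 lost the call with an embryo left out and 25 without the replicate block. With single embryos left out, 4 genes that did not pass turned sign: Aqp1 ran from -0.01 (without embryo 4) to 0.68, Csf1r from -0.16 to 0.05 (without embryo 4), Nkd1 from -0.12 to 0.06 (above 0 without embryo 4 or 5) and Dll4 from -0.05 to 0.07 (likewise). No other named change turned sign under any alternative. With the 5 TPM filter fewer list members were tested, 2 hem genes being called in place of 7 and 9 interneuron genes in place of 14. TPM keeps no depth, so counting error at low values such as those of Wnt8b dorsally is unknown.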
